A study of Mus musculus with 12 samples.

Results

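Marker genes of the hippocampal subfields, 10 in number (Prox1, Dsp, C1ql2, Lct, Tdo2, Calb1, Wfs1, Fibcd1, Pou3f1 and Bok), were followed through 12 mRNA libraries from mouse hippocampus. They were chosen by symbol from the gene names of the count table, as markers of dentate granule cells (6 genes), of CA1 (3 genes) and of CA2/CA3 (1 gene). All 10 were found among the 22236 genes of the table, and all 10 were among the 15853 genes that had enough counts to be tested. The hippocampus is a chain of fields with distinct cell types. Granule cells of the dentate gyrus receive input from the entorhinal cortex and send mossy fibres to CA3, CA3 pyramidal cells project to CA1, and CA1 is a main output of the structure. Each field keeps its own set of expressed genes in adult life, so transcripts of such genes serve as labels of the fields in tissue.

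The mice were males of C57BL/6J (B6) and DBA/2J (D2), 3 to 5 months old at injection, and both are common inbred strains. Each mouse received into the hippocampus of both hemispheres an adeno-associated virus, either AAV9-shRNA-Hp1bp3 for knockdown (KD) or AAV-scrmb-shRNA, a scrambled hairpin, as control (Ctrl), and all were otherwise unmodified. Hp1bp3 codes for a chromatin protein related to linker histones. Hippocampus was taken at least 6 weeks later. There were 3 libraries, each from a separate mouse per the study's methods, in each of B6 Ctrl, B6 KD, D2 Ctrl and D2 KD. Whole hippocampus was lysed, so the tissue of all fields was mixed. In such bulk tissue, fewer cells of a type and less RNA per cell cannot be told apart.

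Library totals ran from 18213084 to 39420219 expected counts. The targeted gene, Hp1bp3, was lower in all 3 B6 KD libraries than in any B6 Ctrl library (5429 to 7633 against 8826 to 9372 deposited normalized counts). The highest of these KD values, 7633, was that of B6 KD 3. In D2 the KD libraries had 4878, 5337 and 6941 against 6504 to 7002 in Ctrl, so the library labelled D2 KD 3 lay inside the control range and went against its label. Choroid plexus marker genes, from tissue that lies against the hippocampus, summed to between 235 and 557 CPM (counts scaled to a common library total) in 5 libraries and to between 4215 and 8426 CPM in the other 7, across all 4 groups.

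All 10 genes were detected in every library, the lowest value being an expected count of 26 for Tdo2 in D2 KD 1. Levels below are CPM after TMM scaling, a correction for library composition. Between genes, levels are given as CPM per kilobase of annotated exon. On that scale, in B6 Ctrl, the CA1 genes Wfs1 (38.5 ± 5.30, SD, n = 3) and Fibcd1 (35.1 ± 5.31) stood highest, followed by the dentate genes C1ql2 (29.8 ± 5.03) and Calb1 (27.3 ± 6.09). Bok (18.1 ± 3.41), Pou3f1 (12.5 ± 0.97), Prox1 (10.4 ± 2.81) and Lct (7.76 ± 0.89) came next, and Dsp (4.01 ± 1.87) and Tdo2 (1.50 ± 0.068) were lowest. The ranges of neighbours in this order overlapped, except between Calb1 and Bok, Bok and Pou3f1, Lct and Dsp, and Dsp and Tdo2. Wfs1 was the highest and Tdo2 the lowest in each of the 4 groups, while Prox1 had rank 7 in B6 Ctrl and rank 9 in both D2 groups.

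**Figure D1:**
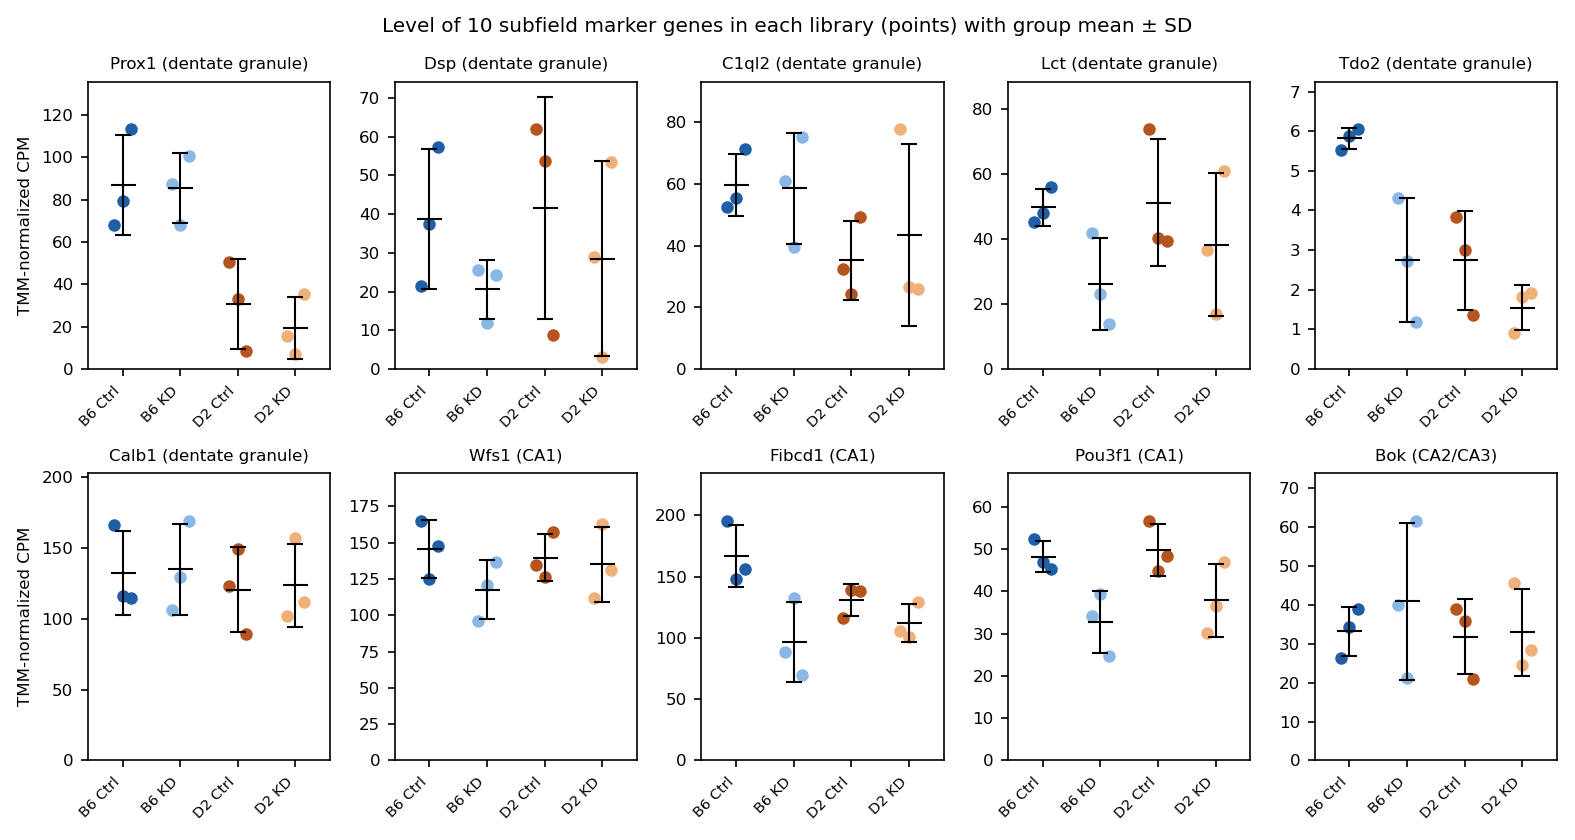
TMM-normalized CPM of each gene (vertical axes, from 0) in the 4 groups (horizontal axes). Points are the 3 libraries of a group and black bars the mean ± SD; all 6 D2 libraries of Prox1 (7.0 to 50.7) lie below all 6 B6 libraries (67.8 to 113.3), whereas the groups of Calb1 overlap.

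Prox1 differed between the strains, and it was the only gene of the 10 called by edgeR with all 12 libraries in any of the 6 comparisons. Prox1 codes for a homeobox transcription factor that granule cells need to acquire and keep their identity. Its level was 67.8, 79.6 and 113.3 CPM in B6 Ctrl and 87.6, 68.1 and 100.9 CPM in B6 KD. In D2 it was 50.7, 33.2 and 8.5 CPM in Ctrl and 15.6, 7.0 and 35.7 CPM in KD. Every D2 library was below every B6 library, and D2 Ctrl 3 and D2 KD 2 were the lowest of all 12. The difference of D2 from B6, averaged over treatments, was -1.82 ± 0.44 (SE) on the log2 scale, with a 95% interval of -2.79 to -0.85 (edgeR quasi-likelihood test, adjusted p = 0.0113). In that comparison 21.3% of all tested genes were called, 12.7% as lower in D2, and for 9% all D2 libraries lay below all B6 libraries. Leaving out each library in turn gave values from -2.21 to -1.59, all of them called.

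In Ctrl mice alone the strain difference of Prox1 was -1.49 ± 0.62 and missed the threshold (adjusted p = 0.165), although the 3 D2 Ctrl libraries lay below the 3 B6 Ctrl libraries. The group means, in order, were 86.9 ± 23.6 CPM for B6 Ctrl, 85.5 ± 16.5 for B6 KD, 30.8 ± 21.2 for D2 Ctrl and 19.4 ± 14.7 for D2 KD (SD, n = 3). The first 2 and the last 2 of these were not told apart by the test of KD against Ctrl, with -0.022 ± 0.60 in B6 (adjusted p = 0.991) and, in the other strain, -0.67 ± 0.61 (adjusted p = 1). Omitting 1 library moved the D2 value to between -1.45 (without D2 KD 3, the library that went against its label) and -0.095 (without D2 Ctrl 1), never called. Reads of each strain were aligned by the authors to the genome of that strain, so the strain and its reference cannot be told apart. Within D2, where the reference was shared, the highest library was 7.19 times the lowest, against 1.67 times within B6.

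Dsp, which codes for desmoplakin, a protein that links cell junctions to intermediate filaments and in the hippocampus is made mainly by granule cells, varied most of the 10. It had 21.4, 37.5 and 57.4 CPM in B6 Ctrl and 25.5, 11.8 and 24.4 CPM in B6 KD. Its D2 libraries had 61.9, 53.8 and 8.7 CPM in Ctrl and 28.8, 3.1 and 53.4 CPM in KD. The 4 groups overlapped, and the lowest libraries of all 12 were again D2 KD 2 and D2 Ctrl 3, a knockdown and a control. The highest D2 library was 19.8 times the lowest, against 4.86 times within B6. No difference passed the test, and the intervals were wide: KD against Ctrl was -0.91 in B6 (95% interval -2.80 to 0.98) and -0.54 in D2 (-2.43 to 1.34). The D2 value ran from -1.38 without D2 KD 3 to -0.010 without D2 KD 2.

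Prox1 and Dsp varied together within groups. With each group's mean subtracted, Pearson's r between their log2 levels was 0.94 over the 12 libraries, which share library preparation and, within a strain, the reference. Of 14181 other genes, 18 had a higher r with Prox1 and 9 a higher r with Dsp. Lct was the next dentate gene in likeness, with r of 0.63 to Prox1 and 0.68 to Dsp, but 1515 and 861 other genes had a higher r with them, and Bok was nearly as close (0.56 and 0.64). With Prox1, r was -0.17 for C1ql2 and 0.07 for Calb1. The 2 libraries lowest in Prox1 and Dsp, D2 Ctrl 3 and D2 KD 2, had choroid plexus sums of 7742 and 235 CPM. They had the lowest oligodendrocyte sums of all 12 (2788 and 2777 CPM) and, of the D2 libraries, the highest sums of microglia (673 and 732 CPM) and astrocyte markers (8539 and 7560 CPM). Interferon response genes summed to 210 CPM in D2 Ctrl 3 and 481 CPM in D2 KD 2, each the highest of its group. Over all 12 libraries, B6 KD 1 and B6 KD 2 had the highest sums of microglia markers (1024 and 995 CPM) and interferon response genes (1036 and 1332 CPM). In these B6 libraries Prox1 was at 87.6 and 68.1 CPM and Dsp at 25.5 and 11.8 CPM. The part of these cells and of the interferon response in the values of Prox1 and Dsp was not tested.

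The 250 bases before the start of Prox1, Dsp and Lct are shown because Prox1 and Dsp varied together, with Lct as the dentate gene next in likeness. They are taken from RefSeq (build GRCm38.p6), which held an entry for 8 of the 10 genes. Capitals mark CANNTG, the E-box core read by basic helix-loop-helix factors. TGACG, the core of the cyclic AMP response element, and ATGCAAAT, the octamer read by POU factors, were also searched on both strands and not found in these windows. The Prox1 window, chr1:190170828-190171077 on the minus strand, began 113 bases from the GENCODE start and held 2 matches:
Prox1: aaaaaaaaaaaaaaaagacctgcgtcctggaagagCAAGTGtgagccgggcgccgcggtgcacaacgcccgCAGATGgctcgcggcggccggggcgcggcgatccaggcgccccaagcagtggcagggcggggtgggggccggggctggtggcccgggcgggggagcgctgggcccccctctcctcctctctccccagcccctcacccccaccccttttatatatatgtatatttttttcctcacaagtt
The Dsp window, chr13:38151044-38151293 on the plus strand, held none:
Dsp: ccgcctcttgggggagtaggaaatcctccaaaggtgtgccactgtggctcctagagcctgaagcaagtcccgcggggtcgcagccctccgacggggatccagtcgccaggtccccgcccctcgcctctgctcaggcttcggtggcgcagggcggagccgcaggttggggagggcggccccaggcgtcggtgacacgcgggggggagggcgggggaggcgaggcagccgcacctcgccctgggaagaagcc
The Lct window, chr1:128328319-128328568 on the minus strand, held 2:
Lct: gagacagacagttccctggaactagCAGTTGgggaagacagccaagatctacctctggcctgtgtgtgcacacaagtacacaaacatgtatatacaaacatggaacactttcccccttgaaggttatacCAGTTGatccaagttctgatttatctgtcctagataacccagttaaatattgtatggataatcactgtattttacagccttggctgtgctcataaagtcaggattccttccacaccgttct
Of 32851 mouse promoter windows of this length, 66.2% held CANNTG, 17.8% held TGACG and 1.6% held ATGCAAAT. The windows of Prox1 and Dsp were rich in G and C (64.8% and 72.4%), and that of Lct was not (42.8%).

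**Figure D2:**
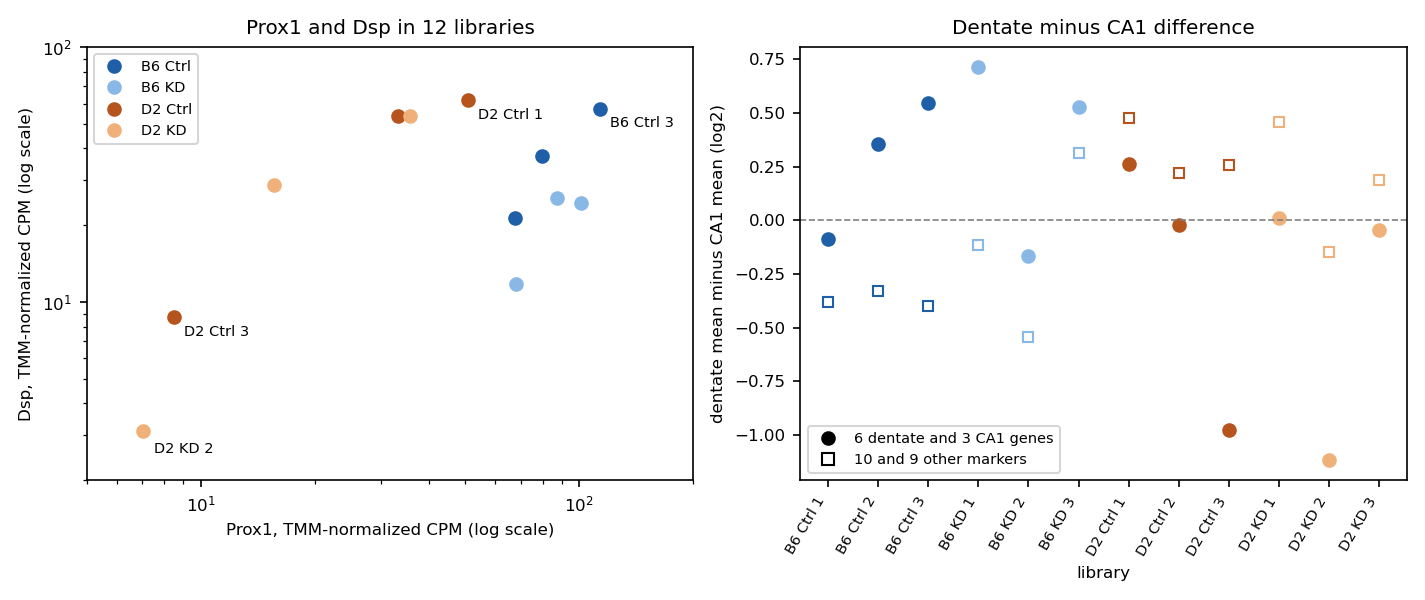
Left, CPM of Prox1 (horizontal) against Dsp (vertical), both on log scales, 1 point per library coloured by group; D2 Ctrl 3 and D2 KD 2 lie lowest in both genes. Right, mean of the dentate genes minus mean of the CA1 genes on the log2 scale in each library; filled circles use the 6 and 3 marker genes of this report and open squares 10 and 9 other markers, and D2 KD 2 is the lowest D2 library by both sets (-1.12 and -0.15), while D2 Ctrl 3 is low by the filled circles only (-0.98 and 0.26).

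None of the other dentate genes, C1ql2, Lct, Tdo2 and Calb1, was called by edgeR with all 12 libraries, and no test compared them with Prox1. C1ql2, a secreted protein that organizes receptors at mossy fibre synapses, had 52.5, 55.4 and 71.2 CPM in B6 Ctrl and 60.9, 39.5 and 75.0 CPM in B6 KD. The D2 libraries had 32.3, 24.2 and 49.2 CPM in Ctrl and 77.6, 26.7 and 26.0 CPM in KD. The D2 Ctrl libraries lay below the B6 Ctrl libraries, but D2 KD 1 was the highest of all 12. The strain difference averaged over treatments was -0.60 ± 0.30 (adjusted p = 0.213). Leaving out each library in turn gave values from -0.94 to -0.46. Only 1 of these fits was called, that without D2 KD 1 (-0.94, adjusted p = 0.00976). In D2 the knockdown difference was 0.30 ± 0.42 (adjusted p = 1).

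Lct, which codes for the enzyme lactase and marks granule cells in the mouse, had 45.1, 48.1 and 56.07 CPM in B6 Ctrl and 41.7, 23.2 and 13.9 CPM in B6 KD. In D2 it had 73.7, 40.4 and 39.3 CPM in Ctrl and 36.8, 16.9 and 60.9 CPM in KD. The 3 B6 KD libraries were below the 3 B6 Ctrl libraries, and the D2 groups overlapped. The difference in B6 was -0.92 ± 0.47 (95% interval -1.96 to 0.11, adjusted p = 0.295). That in D2 was -0.42 ± 0.47 (adjusted p = 1), and omitting 1 library moved it to between -0.94 (without D2 KD 3) and -0.065 (without D2 Ctrl 1), never called.

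Tdo2, tryptophan dioxygenase of the kynurenine pathway, was the least abundant. It had 5.53, 5.89 and 6.04 CPM in B6 Ctrl and 4.31, 2.72 and 1.18 CPM in B6 KD. The D2 libraries held 3.84, 3.00 and 1.37 CPM in Ctrl and 0.91, 1.81 and 1.93 CPM in KD. The 3 B6 Ctrl libraries stood above all other libraries and close to each other. KD against Ctrl gave -1.09 ± 0.47 in B6 (adjusted p = 0.218), and the D2 difference was -0.81 ± 0.48 (adjusted p = 1). D2 against B6 averaged over treatments was -0.95 ± 0.34 and just missed the threshold (adjusted p = 0.0717). Omitting 1 library at a time moved this difference to between -1.12 and -0.68. Only 1 of these fits was called, that without B6 KD 3 (-1.12, adjusted p = 0.0176). These values rest on expected counts of 26 to 209 per library, the fewest of the 10 genes.

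Calb1, the calcium buffer calbindin, which granule cells share with CA1 pyramidal cells and some interneurons, varied little. It had 166.4, 115.9 and 114.6 CPM in B6 Ctrl and 106.1, 129.5 and 169.2 CPM in B6 KD. In D2 it had 123.2, 149.0 and 89.3 CPM in Ctrl and 101.7, 156.8 and 112.3 CPM in KD. All 4 groups overlapped, and the highest library was 1.89 times the lowest. The intervals for KD against Ctrl ran from -0.51 to 0.57 in B6 and from -0.50 to 0.58 in D2, and for D2 against B6 averaged over treatments from -0.51 to 0.25.

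**Figure D3:**
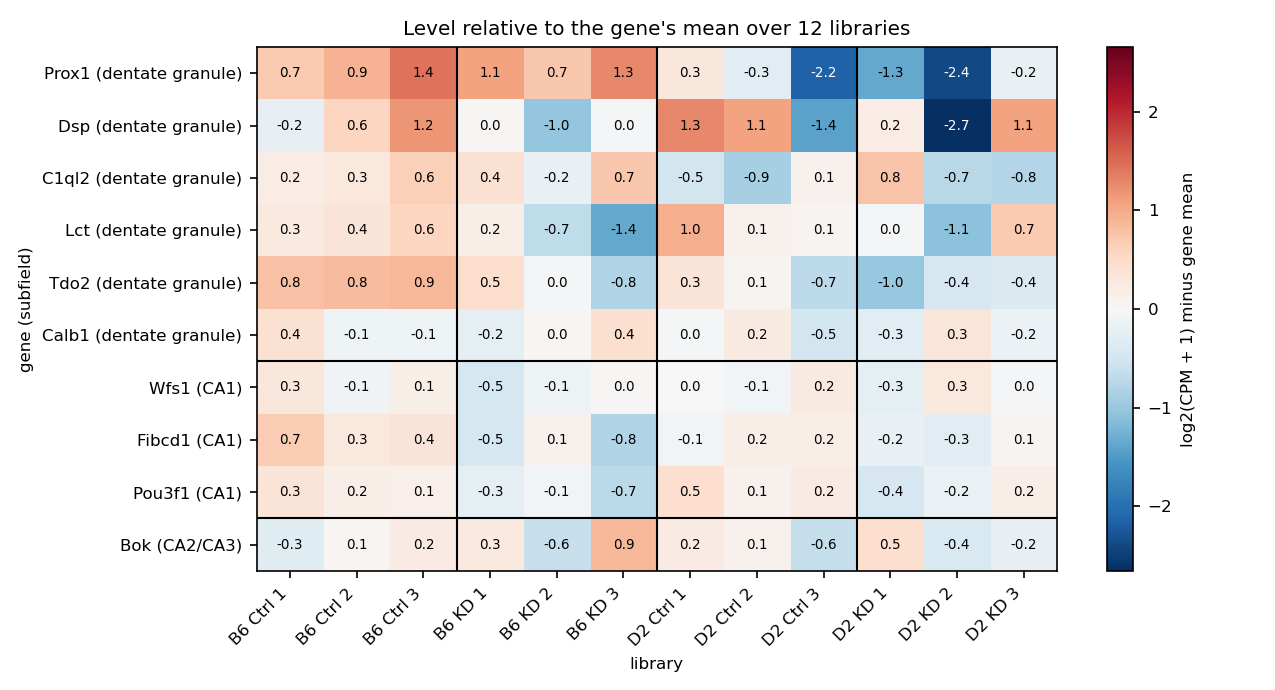
Level of each gene (rows, by subfield) in each library (columns, by group) as log2(CPM + 1) minus the gene's mean over the 12 libraries, red above and blue below it. Prox1 and Dsp reach -2.39 and -2.66 in D2 KD 2, and the 3 CA1 genes stay within 0.81 of their means.

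Among the CA1 genes, Fibcd1 and Pou3f1 were lower in all 3 B6 KD libraries than in any B6 Ctrl library, and Wfs1 was not. Fibcd1 codes for a membrane receptor that binds acetylated sugars and in the hippocampus marks dorsal CA1. It had 195.3, 148.1 and 156.4 CPM in B6 Ctrl and 88.1, 132.7 and 69.5 CPM in B6 KD. Its D2 libraries had 115.9, 138.8 and 137.9 CPM in Ctrl and 105.9, 100.8 and 129.4 CPM in KD. The D2 groups overlapped through D2 Ctrl 1 and the library labelled D2 KD 3. The difference in B6 was -0.79 ± 0.21 (95% interval -1.25 to -0.32) and missed the threshold in edgeR (adjusted p = 0.0684), while DESeq2 called it (-0.81, adjusted p = 0.00671). In D2 it was -0.22 ± 0.21 (-0.69 to 0.24, adjusted p = 1). The test of the difference between the strains gave 0.56 ± 0.30 (adjusted p = 0.870).

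Pou3f1, a POU transcription factor of CA1 pyramidal cells, had 52.4, 46.8 and 45.3 CPM in B6 Ctrl and 34.2, 39.2 and 24.7 CPM in B6 KD. In D2 it had 56.6, 44.7 and 48.3 CPM in Ctrl and 30.02, 36.5 and 46.9 CPM in KD. In D2 the KD libraries were below all Ctrl libraries except for the one labelled D2 KD 3. The difference was -0.56 ± 0.19 in B6 (edgeR adjusted p = 0.123, DESeq2 adjusted p = 0.0463) and -0.40 ± 0.19 in D2 (edgeR adjusted p = 1). Averaged over the strains it was -0.48 ± 0.13 (95% interval -0.77 to -0.19), the smallest adjusted p of the 10 genes in that comparison (0.0951). Leaving out each library in turn gave averages from -0.57 to -0.42. Only 1 of these fits was called, that without the library labelled D2 KD 3 (-0.57 ± 0.13, adjusted p = 0.0355). The interaction was 0.16 ± 0.27 (adjusted p = 0.986).

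Wfs1, which codes for wolframin of the endoplasmic reticulum and labels CA1 pyramidal cells, had 165.0, 124.9 and 147.5 CPM in B6 Ctrl and 95.9, 120.6 and 136.8 CPM in B6 KD. The D2 libraries had 134.9, 126.5 and 157.6 CPM in Ctrl and 111.6, 162.7 and 131.0 CPM in KD. The groups overlapped in both strains. The difference in B6 was -0.31 ± 0.17 (95% interval -0.68 to 0.07, adjusted p = 0.333) and in D2 -0.05 ± 0.17 (-0.42 to 0.33, adjusted p = 1).

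Bok, a member of the BCL family of cell death regulators that is strong in CA3, had 26.4, 34.4 and 38.8 CPM in B6 Ctrl and 39.8, 21.3 and 61.5 CPM in B6 KD. In D2 it had 38.8, 35.8 and 20.9 CPM in Ctrl and 45.6, 24.6 and 28.4 CPM in KD. B6 KD held both the highest of all 12 libraries and nearly the lowest. KD against Ctrl was 0.30 ± 0.37 in B6 (95% interval -0.51 to 1.12) and 0.05 ± 0.37 in D2 (-0.77 to 0.87), neither called.

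Set side by side, the knockdown estimates of the dentate and CA1 genes in B6 were mostly below 0, but none passed the test. In B6, 0 of the 10 genes were called by edgeR, where 2.64% of all tested genes were (1.76% higher and 0.877% lower). That share over all genes was 0% when any 1 of B6 Ctrl 1, B6 Ctrl 3, B6 KD 1, B6 KD 2 and D2 Ctrl 1 was omitted, and 4.94% without B6 KD 3. An unadjusted p under 0.05 was found for 3 of the 10 (20.6% of all genes), DESeq2 called 2 (10.6% of all genes) and limma-voom called 0 (2.32% of all genes). For 4 of the 10 (Lct, Tdo2, Fibcd1 and Pou3f1) the KD libraries lay below the Ctrl libraries without overlap, and for 0 above, against 14% and 13.9% of all genes. In each of these 4 genes the lowest B6 library was B6 KD 3. That library had the most Hp1bp3 of the B6 KD libraries (7633, against 5539 in B6 KD 1 and 5429 in B6 KD 2, deposited normalized counts). The estimate was below 0 for 8 of the 10, against 49.4% of all genes, and the median log2 fold change was -0.47 over the 6 dentate genes and -0.56 over the 3 CA1 genes.

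In D2, 0 of the 10 genes were called by edgeR (0% of all genes), DESeq2 (0.00631%) or limma-voom (0%), 0 had an unadjusted p under 0.05 (2.85% of all genes), and 0 had libraries without overlap in either direction (3.03% lower and 2.93% higher among all genes). The D2 estimate was below 0 for 7 of the 10 genes. Among these, Wfs1 was close to 0 (-0.048) and ran from -0.20 to 0.059 when each library was left out in turn. The median log2 fold change in D2 was -0.48 over the 6 dentate genes and -0.22 over the 3 CA1 genes, against 0.0041 over all genes. Averaged over the strains, edgeR called 0 of the 10 and 0% of all genes, with 3 of the 10 and 19.2% of all genes at an unadjusted p under 0.05. There DESeq2 called Fibcd1 and Pou3f1, with 7.83% of all genes, and limma-voom called 0. For the interaction 0 were called by edgeR (0% of all genes), DESeq2 (0.0694%) or limma-voom (0%) and 0 had an unadjusted p under 0.05, against 5.91% of all genes.

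For the strains, the comparison within Ctrl called 0 of the 10 genes with each of the 3 tools (14% of all genes in edgeR, 16.9% in DESeq2 and 13.6% in limma-voom), with 2 at an unadjusted p under 0.05 (23.2% of all genes). For Prox1, C1ql2, Tdo2 and Fibcd1 the D2 Ctrl libraries lay below the B6 Ctrl libraries without overlap, against 17.9% of all genes. Averaged over treatments Prox1 was the 1 gene called by edgeR and by limma-voom (21.1% of all genes), and DESeq2 called Prox1 and Tdo2 (24.6% of all genes). There 2 of the 10 had an unadjusted p under 0.05 (30.3% of all genes). The CA1 genes differed little there: Wfs1 was 0.07 ± 0.12, Fibcd1 -0.07 ± 0.15 and Pou3f1 0.13 ± 0.13. The comparisons share their libraries, the Ctrl groups in particular, so they are not independent of each other.

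**Figure D4:**
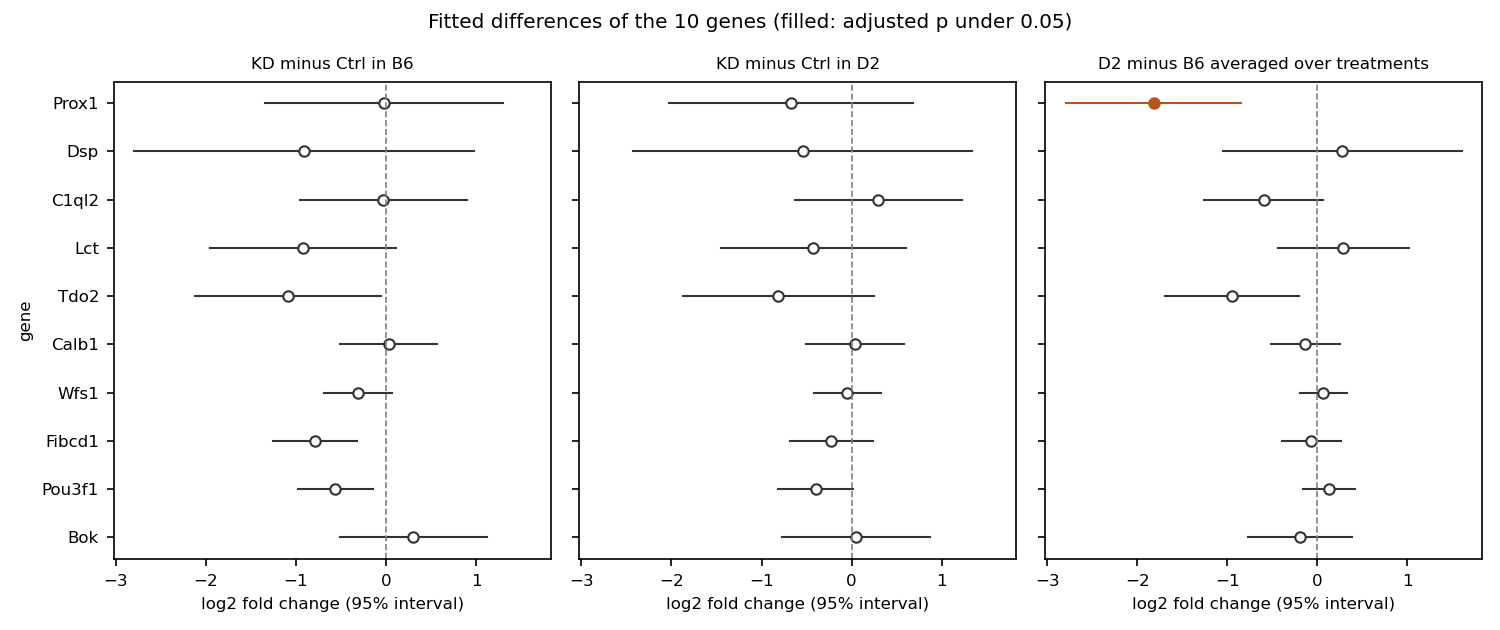
Fitted log2 fold change (horizontal) of each gene (vertical) with its 95% interval, for the knockdown in B6 (left), the knockdown in D2 (middle) and D2 against B6 averaged over treatments (right). The filled point, Prox1 in the strain comparison at -1.82, is the only one with an adjusted p under 0.05, and the intervals of the CA1 genes are narrower than those of Prox1 and Dsp.

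Other markers of the same fields are read against the 2.64% of all genes called by edgeR for KD in B6 and the 21.3% called for D2 against B6 averaged over treatments. Of 10 other dentate markers tested, Sema5b fell in B6 KD (-0.73 ± 0.13, adjusted p = 0.0332) and Glis3 was lower in D2 averaged over treatments (-1.89 ± 0.26). In each of these 2 comparisons, 5 of the 10 estimates were above 0 and 5 below. Their medians were -0.011 for KD in B6 and 0.0097 for D2 against B6. Of 9 other CA1 markers, edgeR called 0 for the knockdown in B6, with 2 at an unadjusted p under 0.05, and DESeq2 called 1 and limma-voom 0. For KD in B6, 8 of these 9 estimates were below 0, against 49.4% of all genes, with a median of -0.48. For KD in D2, 4 were below 0 and 5 above, with a median of 0.068. In D2 against B6 averaged over treatments edgeR called 3 of these CA1 markers lower (Zbtb20 at -3.27 ± 0.14, Gpr161 at -1.12 ± 0.23 and Spink8 at -0.43 ± 0.13). Of 9 other CA3 markers, 2 were higher in D2 in the same comparison (Spock1 at 2.07 ± 0.090 and Cdh24 at 1.85 ± 0.16). Of 10 CA2 markers, Amigo2 (0.37 ± 0.097) and Rgs14 (0.30 ± 0.072) were higher and Adcy5 (-0.40 ± 0.096) was lower in D2. Of 10 genes of immature granule cells and progenitors, edgeR called Igfbpl1 higher in B6 KD (2.19 ± 0.45, adjusted p = 0.041), while DESeq2 called 3 of the 10 and limma-voom 0. Sox11 (3.33 ± 0.24) and Igfbpl1 (1.05 ± 0.30) were called higher in D2 by edgeR, and limma-voom called 1 gene of that list.

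The balance of dentate to CA1 transcripts was taken as the mean of the 6 dentate genes minus that of the 3 CA1 genes. Each gene entered as log2(CPM + 1) centred on its own mean. Calb1 was counted as dentate, although granule cells share it with CA1 pyramidal cells. Within groups, r of Calb1 was 0.52 with Wfs1, -0.11 with Fibcd1 and -0.14 with Pou3f1, and between -0.57 and 0.07 with the other dentate genes. The balance was -0.98 in D2 Ctrl 3 and -1.12 in D2 KD 2, and between -0.17 and 0.71 in the other 10 libraries. These 2 libraries were picked out for their low Prox1 and Dsp, and those genes carried most of the low values. In D2 Ctrl 3, Prox1 and Dsp were at -2.16 and -1.42 from their means. There Tdo2 and Calb1 were also low, at -0.69 and -0.49, while C1ql2 and Lct were at 0.11 and 0.067. In D2 KD 2, Prox1 and Dsp were at -2.39 and -2.66, with Lct at -1.10, C1ql2 at -0.75, Tdo2 at -0.44 and Calb1 at 0.32. The mean of the CA1 genes was 0.21 and -0.052 in these libraries. With the 10 other dentate and 9 other CA1 markers, the index lay between -0.54 and 0.31 in the B6 libraries. On that index D2 KD 2, at -0.15, was again below the other 5 D2 libraries (0.19 to 0.48), and D2 Ctrl 3, at 0.26, was among them. D2 KD 2 also had the lowest mean level of all 12 libraries for the 10 other dentate markers (4.75 on the log2 scale).

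Levels of genes that mark other cells or states are given here beside these values. Their counts are read against the shares of all genes. For KD in B6 these were 2.64% called by edgeR, 10.6% by DESeq2 and 2.32% by limma-voom, with 20.6% at an unadjusted p under 0.05 in edgeR. For D2 against B6 averaged over treatments, edgeR called 21.3% of all genes, 12.7% as lower. Interferon response genes were called higher in B6 KD for 10 of 10, with summed levels of 71.0 to 87.6 CPM in B6 Ctrl and 451 to 1332 in B6 KD, and of 80.5 to 210 in D2 Ctrl and 101 to 481 in D2 KD. Microglia markers summed to 441 to 507 CPM in B6 Ctrl and 631 to 1024 in B6 KD, with 1 of 9 called by edgeR (Itgam, 1.09 ± 0.23) and 7 by DESeq2, and to 411 to 673 in D2 Ctrl and 424 to 732 in D2 KD. Markers of glutamatergic neurons at large summed to 6661 to 7683 CPM in B6 Ctrl and 5151 to 6730 in B6 KD, with 1 of 6 called lower (Camkv, -0.47 ± 0.096), and to 6840 to 7898 in D2 Ctrl and 6143 to 6890 in D2 KD. Choroid plexus markers summed to 257 to 4215 CPM in B6 Ctrl and 431 to 7690 in B6 KD, with 0 of 10 called by edgeR, DESeq2 or limma-voom and 0 at an unadjusted p under 0.05. Oligodendrocyte markers summed to 4117 to 6062 CPM in B6 Ctrl, 4225 to 5227 in B6 KD, 2788 to 5056 in D2 Ctrl and 2777 to 3410 in D2 KD. In D2 against B6 averaged over treatments, the comparison in which Prox1 was called, 8 of 8 oligodendrocyte estimates were below 0 (median -0.37, against 0.016 over all genes). There edgeR called 2 of the 8 lower, among them Mobp (-2.57 ± 0.20), whose change was far larger than the median. It also called 2 of 9 microglia markers lower in that comparison. Astrocyte markers summed to 5397 to 6215 CPM in B6 Ctrl and 6117 to 7983 in B6 KD, with 1 of 8 called higher (Aqp4, 1.202 ± 0.194), and to 6166 to 8539 in D2 Ctrl and 5876 to 7560 in D2 KD. Endothelial markers summed to 294 to 368 CPM in B6 Ctrl, 365 to 395 in B6 KD, 297 to 332 in D2 Ctrl and 283 to 342 in D2 KD, with 0 of 7 called by edgeR for KD in B6, 3 at an unadjusted p under 0.05, and 1 called by DESeq2 and 0 by limma-voom. In D2 against B6 averaged over treatments, edgeR called 1 endothelial marker lower (Flt1, -0.58 ± 0.12). No gene of these lists was at 0 in any library, and their part in the values of the 10 genes was not tested. With the choroid plexus score as a covariate, the B6 difference was -0.84 for Fibcd1 and -0.52 for Pou3f1, neither called. That fit called 0 of all 15853 genes for KD in B6, so the missing call is not particular to Fibcd1 and Pou3f1.

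The 10 genes lie on 6 chromosomes, and all are annotated as protein coding (GENCODE M21 on GRCm38, the build named in the submitters' processing notes). Prox1 is on chromosome 1 from 190118035 to 190170714 on the minus strand and Dsp on chromosome 13 from 38151294 to 38198577 on the plus strand. Fibcd1 is on chromosome 2 from 31813290 to 31846005 on the minus strand and Pou3f1 on chromosome 4 from 124656807 to 124660655 on the plus strand. C1ql2, Lct and Bok are on chromosome 1 with Prox1, Calb1 is on chromosome 4, Tdo2 on chromosome 3 and Wfs1 on chromosome 5. Annotated genes on the opposite strand overlap Prox1 (Prox1os and Gm28172), Dsp (Gm10129) and Pou3f1 (Gm2164). Whether reads were counted by strand is not given in the sources used here, and without strand, reads of Prox1 and of its antisense neighbours cannot be told apart.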

How the data were processed

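Total RNA of whole hippocampus was sequenced as mRNA libraries (KAPA mRNA Hyper Prep). The authors trimmed the reads, aligned them to the C57BL/6J or the DBA/2J genome by strain and estimated expression with RSEM 1.2.12 and Bowtie2 2.2.0. The deposited expected counts are the RSEM estimates per gene, not normalized. Per the study's methods all samples were sequenced again and most joined over both runs, and which were not joined is not given. A second deposited file holds the DESeq2 normalized count, a signal per gene, used here only for Hp1bp3 and for an alternative, in which multiplying by a size factor per library (0.584 to 1.35) gave whole reads (within 0.01) for 100% of 266808 values.

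Expected counts were rounded. Genes passing filterByExpr (15853 of 22236) were tested in edgeR 4.0.16 by quasi-likelihood F-tests (R 4.3.3, TMM, robust, its default older method) in 1 fit of the 4 groups, and Benjamini-Hochberg adjusted p under 0.05 was called over all tested genes in 6 comparisons. Standard errors are the fold change over the square root of F. DESeq2 1.42.0 and limma 3.58.1 (voom) were alternatives, with other settings and 12 leave-one-out fits. Scripts were tested on simulated data. Replicates are numbered in order of deposit and pair nothing. Likeness used log2(CPM + 1) with group means subtracted. All 10 genes are named in every comparison, and of other lists at most the 3 called genes with the largest change. The genes and lists were chosen with earlier results of these data known. Dates had replaced 27 symbols, which were restored from their identifiers. With totals of 18213084 to 39420219 counts, counting error is relatively largest for genes of low level, such as Tdo2.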

Additional observations from a re-analysis of the deposited data

How the results depend on the processing

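Over 10 other settings, 555 of the values of single genes kept their direction and their side of the threshold, 10 changed sign and 5 crossed it. Over 12 fits that each left out 1 library the counts were 661, 56 and 3. No value that changed sign was called. The call of Prox1 in D2 against B6 averaged over treatments held in every setting and every such fit (adjusted p from 0.00123 to 0.0363). The number of the 10 genes called moved with DESeq2, to 2 for KD against Ctrl averaged over strains (Fibcd1 and Pou3f1, main value 0), to 2 in B6 (the same genes, main value 0) and to 2 for D2 against B6 averaged over treatments (Prox1 and Tdo2, main value 1). Leaving out 1 library gave 0 to 1 called for KD against Ctrl averaged over strains and 1 to 2 for D2 against B6 averaged over treatments, and 0 to 0 in the other comparisons.

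Over all genes, KD against Ctrl in B6 called 418, 1688 with DESeq2, and 0 with the total count (3068 at an unadjusted p under 0.05) or the choroid plexus score (2841) as a covariate. It called 0 without B6 Ctrl 1, B6 Ctrl 3, B6 KD 1, B6 KD 2 or D2 Ctrl 1 (2231 to 3348 at an unadjusted p under 0.05), 45 without D2 Ctrl 2, 124 without D2 KD 1, 237 without B6 Ctrl 2, 673 without D2 KD 3 and 790 without B6 KD 3. Averaged over strains it called 0, 1241 with DESeq2, 15 with the newer quasi-likelihood method, 799 without D2 KD 3, 400 without B6 KD 3, 326 without D2 Ctrl 3 and 1 without B6 Ctrl 2. The cause was not tested.

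With the total count as a covariate the sign changed for Bok in D2 against B6 in Ctrl (0.085) and in KD in D2 (-0.082), for Calb1 in KD in D2 (-0.031) and the interaction (-0.073), and for Wfs1 in D2 against B6 in Ctrl (0.053). With the choroid plexus score it changed for the interaction of Calb1 (-0.10). With limma-voom it changed for Dsp in D2 against B6 averaged over treatments (-0.31), in Ctrl (-0.25) and in the interaction (-0.11), and for Lct in D2 against B6 in Ctrl (-0.0036).

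Leaving out 1 library changed the sign of further small values. For D2 against B6 averaged over treatments these were Bok (-0.34 to 0.032), Dsp (-0.14 to 0.55), Fibcd1 (-0.15 to 0.085) and Wfs1 (-0.0083 to 0.14). In Ctrl they were Bok (-0.23 to 0.17), Calb1 (-0.32 to 0.071), Dsp (-0.31 to 0.58), Lct (-0.32 to 0.20), Pou3f1 (-0.054 to 0.12) and Wfs1 (-0.17 to 0.040). For KD averaged over strains they were Bok (-0.057 to 0.32), C1ql2 (-0.24 to 0.29) and Calb1 (-0.088 to 0.12), in B6 Bok (-0.14 to 0.59), C1ql2 (-0.28 to 0.17), Calb1 (-0.20 to 0.20) and Prox1 (-0.20 to 0.19), and in D2 Bok (-0.28 to 0.22), C1ql2 (-0.43 to 0.61), Calb1 (-0.17 to 0.22) and Wfs1 (-0.20 to 0.059). For the interaction they were Bok (-0.55 to 0.17), C1ql2 (-0.37 to 0.64), Calb1 (-0.20 to 0.22), Dsp (-0.47 to 0.90), Lct (-0.013 to 1.03), Pou3f1 (-0.021 to 0.33) and Tdo2 (-0.082 to 0.80).

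No paired analysis was possible because the labels give no replicate numbers shared between groups.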

Other observations

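Within groups, the genes closest to each marker in log2 level were as follows, as a description over 12 libraries and 14181 genes with no test. Nearest to Prox1 were Kbtbd11 (Pearson's r 0.98), Onecut2 (0.98) and Zfyve20 (0.97), and nearest to Dsp were Ccbe1 (0.99), Pms2 (0.96) and Hcfc1 (0.96). Slc26a4 (0.96), Gpr115 (0.96) and Stx6 (0.94) were nearest to C1ql2. Tdrd5 (0.95), Scnn1a (0.93) and Ewsr1 (0.93) were nearest to Lct, and Uevld, Zfp560 and Gamt (each 0.96) to Tdo2. Calb1 was followed most closely by Mlycd (0.92), Spred3 (0.92) and Hpcal1 (0.91). For the CA1 genes the nearest were Hspa5 (0.93), a chaperone of the endoplasmic reticulum, for Wfs1, Syne4 (0.92) for Fibcd1 and Plekhn1 (0.96) for Pou3f1. For Bok it was Npnt (0.96), itself in the list of other dentate markers. Fibcd1 and Pou3f1 had r of 0.67 to each other and of -0.77 and -0.65 to Bok. For that pair, 223 other genes had a higher r with Fibcd1 and 707 a higher r with Pou3f1. The third CA1 gene, Wfs1, had r of 0.018 to Fibcd1, 0.00043 to Pou3f1 and -0.36 to Bok.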
